A study of Phlebiopsis gigantea with 8 samples.

Results

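The genes described here are the 47 gene models of the softwood-decaying basidiomycete *Phlebiopsis gigantea*, out of 11892 in the expression table, whose function name or protein-domain description names terpenes, polyprenyl synthetases, squalene, sterols, mevalonate or hydroxymethylglutaryl-CoA, polyketides, or the beta-ketoacyl synthase domain. Rows that named a cytochrome P450 or a desaturase were left out, which removed 3 desaturases, and no model carried the word nonribosomal spelled out. Of the 47, 15 had a function name and 32 were chosen by a domain description alone, so the group holds several genes whose domain is shared with other functions. They were sorted by annotation into 5 mevalonate pathway genes, 3 polyprenyl chain synthases, 18 squalene and sterol enzymes, 6 sterol-binding and transport genes, 11 terpenoid synthases and 4 polyketide or beta-ketoacyl synthase genes.

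Mycelium was grown for 5 days in 250 ml of basal salts with 1 of 3 carbon sources. NELP was freshly harvested, ground loblolly pine that kept its extractives and had been spiked with acetone and dried (3 cultures). ELP was the same wood after prolonged Soxhlet extraction and drying (3 cultures), and Glc was glucose as sole carbon source (2 cultures). The labels give 2.5 g of wood per culture, whereas the study's methods state another amount, and the extractives left in each wood were not measured in the files used here. Poly-A RNA was sequenced, and each gene has 1 value per library in reads per kilobase of model scaled to library size (RPKM). RNA came from whole mycelium, so less transcript in every hypha and fewer expressing hyphae cannot be told apart.

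As background, the mevalonate pathway builds the 5-carbon isoprenoid unit from acetyl-CoA through hydroxymethylglutaryl-CoA (HMG-CoA), and HMG-CoA reductase is its best-known control point. The units are joined to farnesyl diphosphate, from which squalene synthase opens the route to ergosterol, the main membrane sterol of fungi. Terpenoid synthases cyclise the same diphosphates to sesquiterpenes and related products, for which basidiomycetes are well known, and polyketide synthases join acyl units through a beta-ketoacyl synthase domain. Sequences of these genes were not analysed here.

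The libraries differed in ways that touch every comparison. In the 6 wood libraries the median gene had 21.8 to 23.8 RPKM, but in Glc 1 and Glc 2 it had 12.3 and 16.3, so the median gene was 0.54 log2 higher in NELP and 0.60 higher in ELP than in Glc. Fold changes were therefore also computed after rescaling each library by the median of its gene ratios, which brought those medians to -0.03 and -0.03. Replicates spread by a median log2 SD of 0.51 between the Glc libraries against 0.19 in NELP and 0.22 in ELP. Sequencing depth, read from the steps between the lowest values, was 0.579 to 1.799 times that of NELP 1. As a check of the labels, the cellobiohydrolase gene Phlgi1_34136, a cellulose-degrading enzyme, stood at 2544 to 4953 RPKM on wood and at 56.8 and 28.4 in Glc. The 47 genes together held 0.157% and 0.166% of all RPKM in the Glc libraries and 0.208% to 0.290% in the wood libraries.

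**Figure D1:**
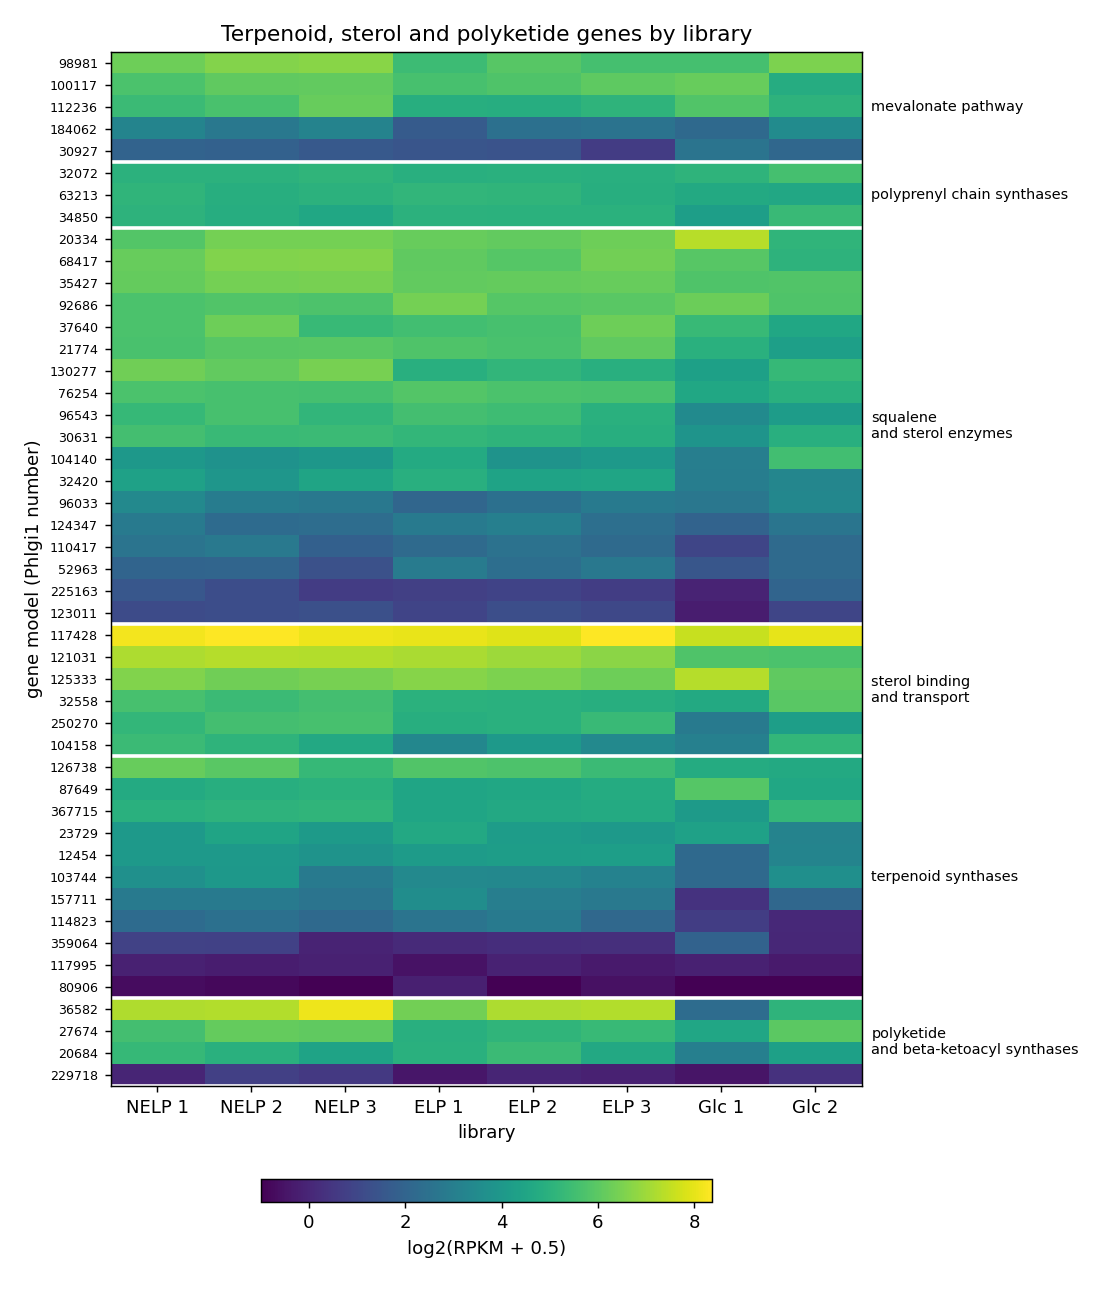
Heat map of all 47 genes (rows, by role and then by mean level) in the 8 libraries (columns), coloured by log2(RPKM + 0.5). Levels ran from the sterol-binding gene Phlgi1_117428, brightest in every library but 1 and at 189 to 329 RPKM, to the terpenoid synthase model Phlgi1_80906, at 0 to 0.388 RPKM.

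Of the 47, 44 averaged 1 RPKM or more across the 8 libraries and were tested, among 10999 genes in all. A gene passed where limma's Benjamini-Hochberg adjusted p was under 0.05. In NELP against Glc, 14 of the 44 (31.8%) were higher and 0 lower, where 29.5% of all genes tested were called higher and 3.67% lower. In ELP against Glc, 12 (27.3%) were higher and 1 lower, against a background of 37.3% and 5.14%. The shares of genes called higher were thus near or below those of all genes, and the median log2 fold changes of 0.50 and 0.35 were also near or below the 0.54 and 0.60 of all genes. After rescaling, 5 were higher and 1 lower in NELP (background 6.61% and 6.96%), and 5 were higher and 5 lower in ELP (background 10.8% and 11.4%), with medians of -0.10 and -0.29. With the 2 compared media alone in the fit, 4 were higher in NELP and 7 in ELP, with 0 lower (background 7.79% and 1.12% in NELP, 17.4% and 2.25% in ELP). When libraries were weighted by their estimated spread, 0 members passed against Glc in either comparison, and of all genes 1.02% were called higher and 0.236% lower in NELP, and 1.45% and 0.3% in ELP. The calls that held after rescaling, with the compared media alone and with every library left out in turn were those of Phlgi1_36582, Phlgi1_114823, Phlgi1_96543 and Phlgi1_121031 in NELP, and of Phlgi1_36582, Phlgi1_114823, Phlgi1_96543, Phlgi1_32420 and Phlgi1_12454 in ELP. Both comparisons share the 2 Glc libraries. The NELP libraries lay wholly above the Glc libraries for 20 of the 44 genes and wholly below for 1 (49.7% and 7.84% of all genes), and the ELP libraries for 16 and 2 (51.4% and 8.93%).

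Between the wood media no member passed (0 of 44, against 1 gene, or 0.00909%, of all genes higher and 0% lower), while 6 members and 1798 of all genes had an unadjusted p under 0.05 in the same limma fit. The NELP libraries lay wholly above the ELP libraries for 12 of the 44 genes (27.3%, where 16.7% of all genes did) and wholly below for 3 (6.82%, where 22.1% did). The median log2 fold change was 0.15, beside -0.07 for all genes. When the fit held the wood libraries alone, and so left out the wide Glc spread, 5 members were higher and 0 lower in NELP, where 6.12% of all genes were called higher and 4.28% lower. With the library weights 12 were higher and 2 lower (15.9% and 19.7% of all genes), and after rescaling in the fit over all media 0 passed (0.0273% and 0% of all genes).

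**Figure D2:**
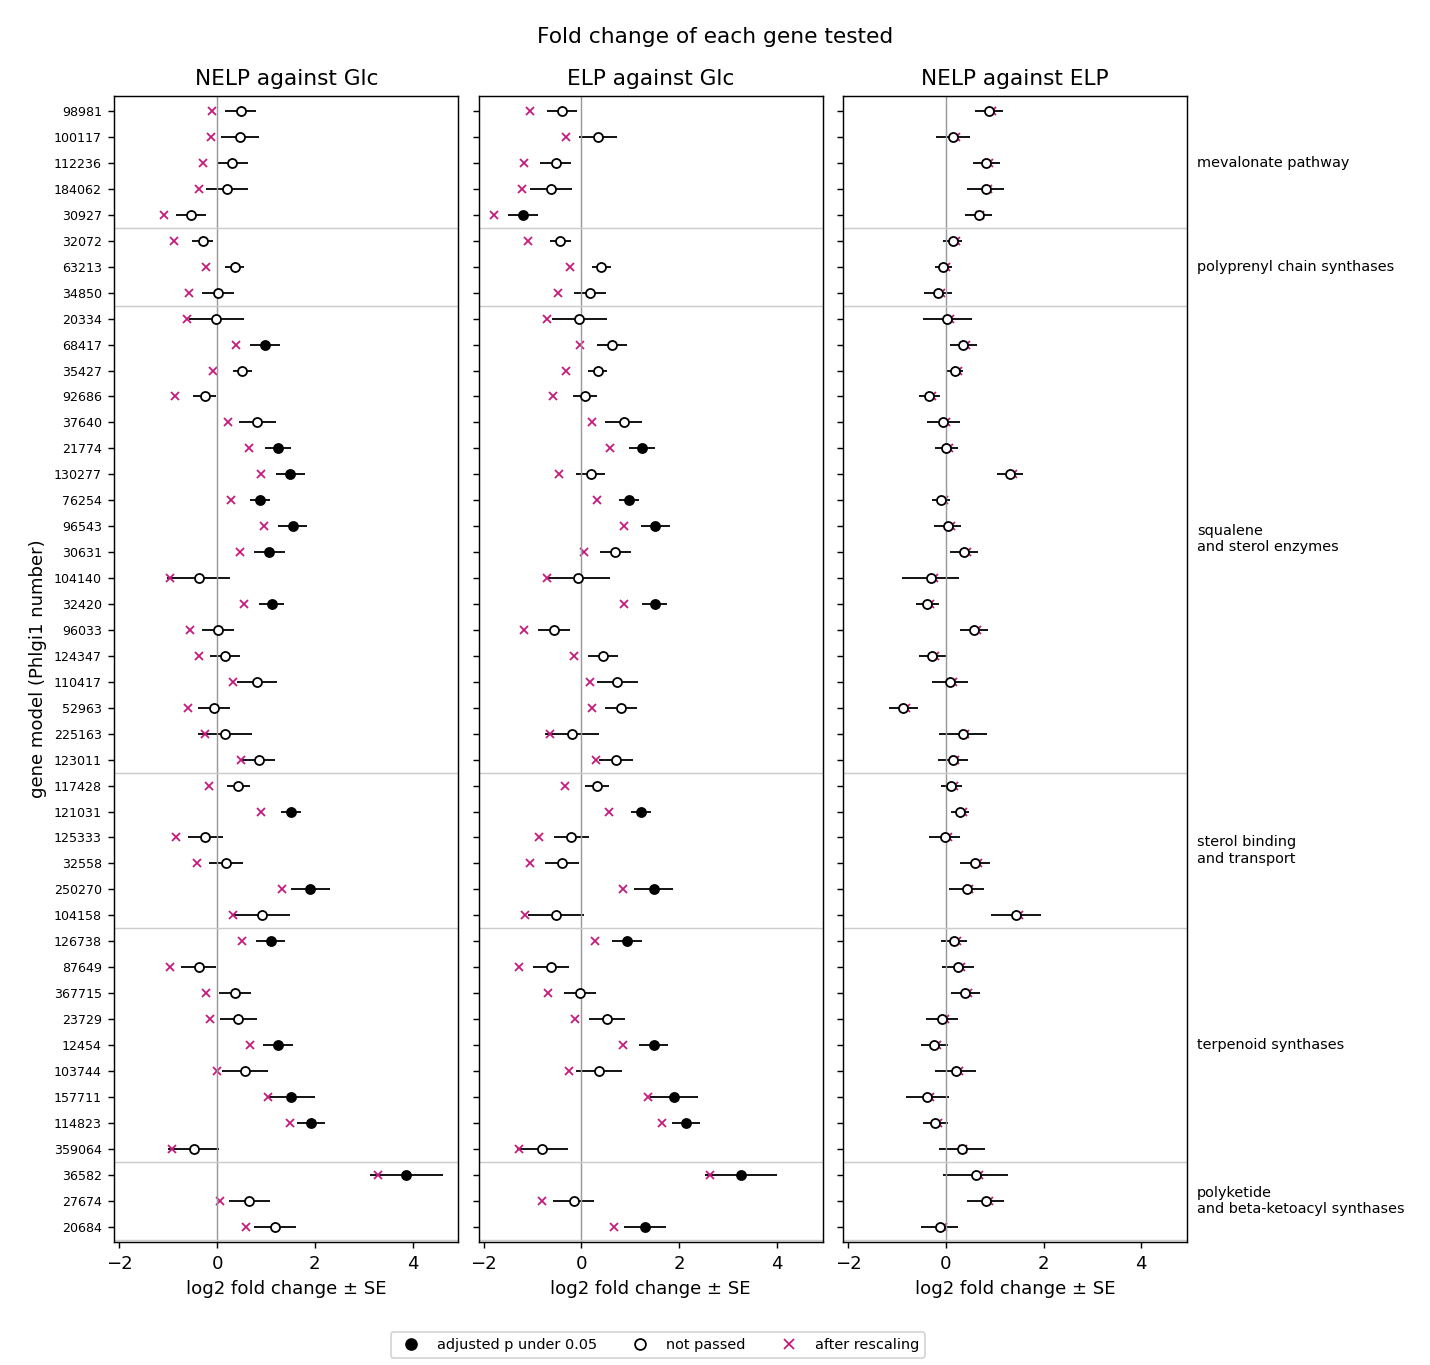
Log2 fold change with its standard error (x axis) for each of the 44 genes tested (y axis, by role) in the 3 comparisons, with filled circles for genes past an adjusted p of 0.05 and crosses for the value after rescaling. The polyketide synthase Phlgi1_36582 stands farthest right against Glc, at 3.87 and 3.27, and rescaling moves nearly all wood-against-glucose values to the left.

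The largest change belonged to the polyketide synthase gene Phlgi1_36582, a model spanning 7326 bases. The study reports that sequence gaps break the reading frame of this model. It stood at 153, 156 and 282 RPKM in NELP, at 82.4, 148 and 154 in ELP, with 4.43 and 33.3 in Glc. Every wood library lay above both Glc libraries, and the wood media overlapped. The log2 fold change was 3.87 ± 0.74 (SE, adjusted p = 0.010), or 14.7-fold, in NELP against Glc and 3.27 ± 0.74 (adjusted p = 0.012), or 9.62-fold, in ELP against Glc. The call held after rescaling, at 3.30 (adjusted p = 0.026) and 2.63 (adjusted p = 0.037), and with any library left out. The size rested on which Glc library was kept: without Glc 1 the log2 fold changes were 2.49 and 1.88, and without Glc 2 they were 5.26 and 4.65. NELP against ELP gave 0.61 ± 0.66 (adjusted p = 0.68), which did not pass.

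The gene ranked 626 in NELP and 1153 in ELP by mean level among all genes, and 5269 in Glc. Its neighbours on the assembly, chosen for position alone, were a glutathione S-transferase gene 1928 bases before it and an unannotated gene 701 bases after it. The glutathione S-transferase Phlgi1_129073, an enzyme of a family that conjugates glutathione to foreign and reactive compounds, stood at 927, 1135 and 899 RPKM in NELP, 1112, 644 and 454 in ELP, with 13.2 and 131 in Glc. It too was higher on both woods than on glucose, by 4.53 ± 0.83 (adjusted p = 0.0094) and 4.02 ± 0.83 (adjusted p = 0.0088) on the log2 scale, and as in the polyketide synthase Glc 1 was the lower Glc library. Without Glc 1 these values were 2.90 and 2.39, and without Glc 2 they were 6.17 and 5.65. The gene on the other side, Phlgi1_166382, stood at 15.7 to 35.2 RPKM on wood and at 12.2 and 21.2 in Glc, so its libraries overlapped.

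The other genes with polyketide or beta-ketoacyl words were less clear members. Phlgi1_20684 is a short model of 423 bases with a beta-ketoacyl synthase pattern, at 37.8, 29.9 and 21.0 RPKM in NELP, 30.6, 41.5 and 24.4 in ELP, with 7.81 and 19.7 in Glc. It passed in ELP against Glc (1.30 ± 0.43, adjusted p = 0.042) but not in NELP against Glc (1.18 ± 0.43, adjusted p = 0.067). That call was lost with any library but Glc 2 left out (adjusted p = 0.051 to 0.18), and the log2 fold change was 0.66 without Glc 1 and 1.94 without Glc 2. Phlgi1_27674 has the same pattern beside an enzyme class of DNA polymerase and is taken up with the wood media. Phlgi1_229718, named for polyketide synthesis, stayed at 0.216 to 1.19 RPKM and was not tested. The 2 gene models named NRPS-like, for nonribosomal peptide synthetase, fell outside the rule but are in the study's list of secondary metabolism genes. Phlgi1_35145 stood at 30.7 to 54.4 RPKM on wood, with 4.44 and 24.4 in Glc. It was higher by 1.87 ± 0.61 (adjusted p = 0.0475) in NELP, and did not pass in ELP (1.74 ± 0.61, adjusted p = 0.0501). After rescaling neither passed (adjusted p = 0.16 and 0.20). Phlgi1_66945 is given in that list as a putative alpha-aminoadipate reductase. It stood at 15.6 to 29.2 RPKM on wood and at 21.2 and 9.63 in Glc, so its libraries overlapped.

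The 11 terpenoid synthase genes include Phlgi1_87649, named terpene cyclase, which is described below with the sterol steps. Of the 11, 9 were tested, and 4 (44.4%) passed as higher on each wood than on glucose, with 0 lower, where 29.5% of all genes were called higher in NELP and 37.3% in ELP. After rescaling, 1 and 2 were higher, where 6.61% and 10.8% of all genes were. Phlgi1_114823, a terpenoid synthase with the metal-binding domain, was the firmest of them though low in level. It stood at 4.38, 5.02 and 4.14 RPKM in NELP, 5.51, 6.77 and 3.99 in ELP, with 1.14 and 0.565 in Glc, so that no wood library reached down to the Glc libraries. Its log2 fold change was 1.92 ± 0.28 (adjusted p = 0.0057) in NELP and 2.14 ± 0.28 (adjusted p = 0.0029) in ELP, or 3.79-fold and 4.40-fold, and it passed with each library left out and after rescaling (1.49 and 1.65). Unlike the polyketide synthase, it was higher in Glc 1 than in Glc 2.

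Phlgi1_12454, known by its terpenoid synthase fold alone, stood at 15.7, 16.04 and 13.6 RPKM in NELP, 17.0, 18.1 and 18.5 in ELP, with 4.09 and 8.95 in Glc. It rose by 1.24 ± 0.30 (adjusted p = 0.021) in NELP and by 1.48 ± 0.30 (adjusted p = 0.0087) in ELP. The NELP call was lost without NELP 1 (adjusted p = 0.063) or NELP 2 (adjusted p = 0.072) and after rescaling (adjusted p = 0.11), whereas the ELP call held under each of these, at the threshold after rescaling (0.85, adjusted p = 0.0496).

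Phlgi1_126738, the most abundant terpenoid synthase, stood at 73.1, 62.0 and 38.3 RPKM in NELP, 56.6, 53.5 and 40.8 in ELP, with 26.4 and 25.4 in Glc. It was higher by 1.09 ± 0.30 (adjusted p = 0.030) in NELP and 0.93 ± 0.30 (adjusted p = 0.040) in ELP. These calls were fragile. The first was lost without NELP 1, NELP 2, ELP 2 or Glc 1 (adjusted p = 0.051 to 0.098), the second without NELP 2, ELP 1, ELP 2, Glc 1 or Glc 2 (adjusted p = 0.064 to 0.11), and both were lost after rescaling, at 0.50 and 0.28.

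Phlgi1_157711 stood at 6.57, 6.66 and 5.60 RPKM in NELP, 11.7, 7.52 and 6.43 in ELP, with 0.780 and 3.85 in Glc. It was higher by 1.52 ± 0.49 (adjusted p = 0.046) in NELP and 1.90 ± 0.49 (adjusted p = 0.018) in ELP. The NELP call was lost with any library but Glc 2 left out (adjusted p = 0.059 to 0.15) and the ELP call without ELP 1 (adjusted p = 0.058), and both after rescaling (adjusted p = 0.16 and 0.069). Its size again rested on the Glc library kept: 0.64 and 1.01 without Glc 1, against 2.40 and 2.78 without Glc 2.

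The other terpenoid synthases did not pass. Phlgi1_367715 stood at 30.1, 32.8 and 34.2 RPKM in NELP, 22.2, 24.7 and 26.2 in ELP, with 16.5 and 37.6 in Glc, with the NELP libraries wholly above the ELP libraries (0.40 ± 0.29, adjusted p = 0.53). Phlgi1_359064 was near the floor in 7 libraries, at 0.455 to 1.29 RPKM, and at 3.34 in Glc 1 alone. Phlgi1_23729 (8.62 to 24.9 RPKM) and Phlgi1_103744 (4.15 to 15.2 RPKM) overlapped across the media. Phlgi1_117995 and Phlgi1_80906 had means of 0.349 and 0.0930 RPKM, and the second was listed at 0 in 4 libraries.

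Several terpenoid genes lie side by side on the assembly, by gene order in the RefSeq annotation of the Phlgi1 assembly. The mevalonate kinase gene Phlgi1_100117, Phlgi1_157711 and Phlgi1_114823 are consecutive, with 1411 and 20 bases between them. Phlgi1_359064 and Phlgi1_126738 are adjacent, 565 bases apart, with Phlgi1_103744 beyond 4 further genes. The closest neighbours, Phlgi1_157711 and Phlgi1_114823, both passed as higher on both woods at similar levels. Other neighbours differed in level: Phlgi1_126738 stood at 38.3 to 73.1 RPKM in NELP beside 0.455 to 1.29 for Phlgi1_359064, and the mevalonate kinase at 51.3 to 69.0 RPKM in NELP beside 4.14 to 6.66 for its terpenoid synthase neighbours. With 20 bases between models and counting not stated to use strand, reads of Phlgi1_157711 and Phlgi1_114823 may not be fully separable.

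**Figure D3:**
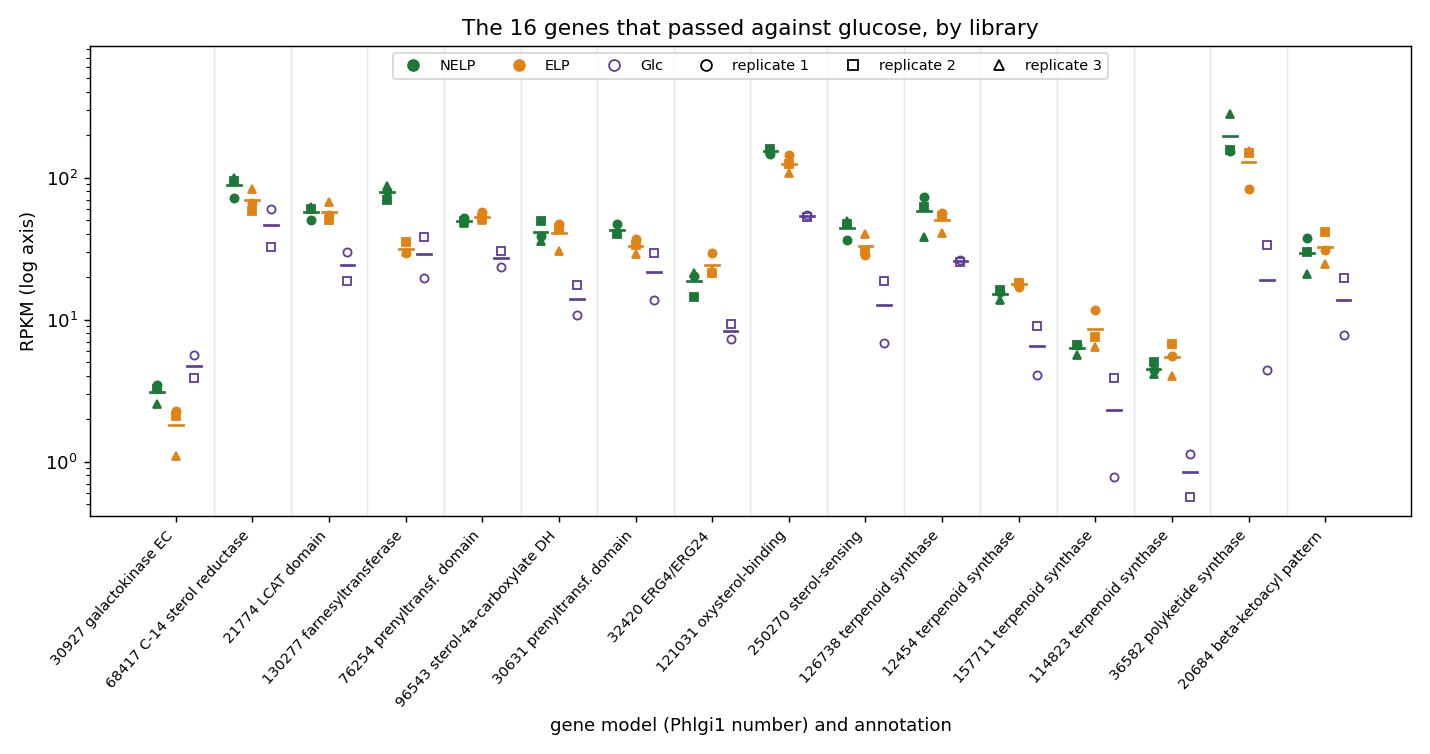
RPKM (log axis) in each library for the 16 genes that passed in at least 1 comparison with glucose, with 1 symbol per replicate, 1 colour per medium and a bar at each mean. The wood libraries lie above the Glc libraries for most, the galactokinase-class gene Phlgi1_30927 lies lower on wood, and the Glc symbols of Phlgi1_36582 are far apart, at 4.43 and 33.3.

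Of the 5 mevalonate pathway genes, 0 passed between the wood media, 0 in NELP against Glc, and 1 as lower in ELP against Glc. All NELP libraries lay above all ELP libraries for 4 of the 5 (16.7% of all genes did), 1 of which is a galactokinase by its enzyme class, and the median log2 fold change over the 5 was 0.81 beside -0.07 for all genes. HMG-CoA reductase, Phlgi1_98981, stood at 77.4, 98.9 and 102.6 RPKM in NELP, 42.2, 60.5 and 48.3 in ELP, with 47.7 and 90.6 in Glc. HMG-CoA synthase, Phlgi1_112236, which makes the substrate of the reductase, stood at 41.3, 50.3 and 73.0 in NELP, 28.7, 27.7 and 33.3 in ELP, with 56.0 and 33.0 in Glc. For both, every library of extracted wood lay below every NELP library, whereas the Glc libraries fell among or above the wood libraries.

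Phosphomevalonate kinase, Phlgi1_184062, which adds the second phosphate to mevalonate, stood at 8.88, 6.20 and 8.72 RPKM in NELP, 2.74, 5.05 and 5.43 in ELP, with 4.14 and 10.9 in Glc. The mevalonate kinase Phlgi1_100117 did not share the pattern, at 51.3, 66.7 and 69.0 in NELP and 49.3, 55.2 and 64.6 in ELP. None of these passed in the fit over all media: the log2 fold changes of NELP against ELP were 0.88 ± 0.28 for the reductase (adjusted p = 0.21), 0.83 ± 0.28 for the synthase (adjusted p = 0.23), 0.81 ± 0.38 for phosphomevalonate kinase (adjusted p = 0.34) and 0.14 ± 0.35 for mevalonate kinase (adjusted p = 0.88). With the wood libraries alone the reductase passed (adjusted p = 0.033), while the synthase (adjusted p = 0.055) and phosphomevalonate kinase (adjusted p = 0.086) did not.

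The remaining gene, Phlgi1_30927, has the domain shared by mevalonate kinase and galactokinase and is assigned to galactokinase, an enzyme of galactose use, by its enzyme class. It was the 1 member that passed as lower on wood, at 2.25, 2.11 and 1.09 RPKM in ELP against 5.62 and 3.86 in Glc (-1.20 ± 0.30, adjusted p = 0.017), with 3.48, 3.25 and 2.56 in NELP (-0.53 ± 0.30, adjusted p = 0.20). The ELP call held after rescaling (-1.78, adjusted p = 0.010) and was lost without Glc 1 (adjusted p = 0.051). The HMG-CoA reductase gene passed as lower in ELP than in Glc after rescaling (-1.06, adjusted p = 0.036). Unrescaled, with all 8 libraries, it did not pass (-0.40 ± 0.32, adjusted p = 0.33), and leaving out 1 library moved this to between -0.86 and 0.06.

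**Figure D4:**
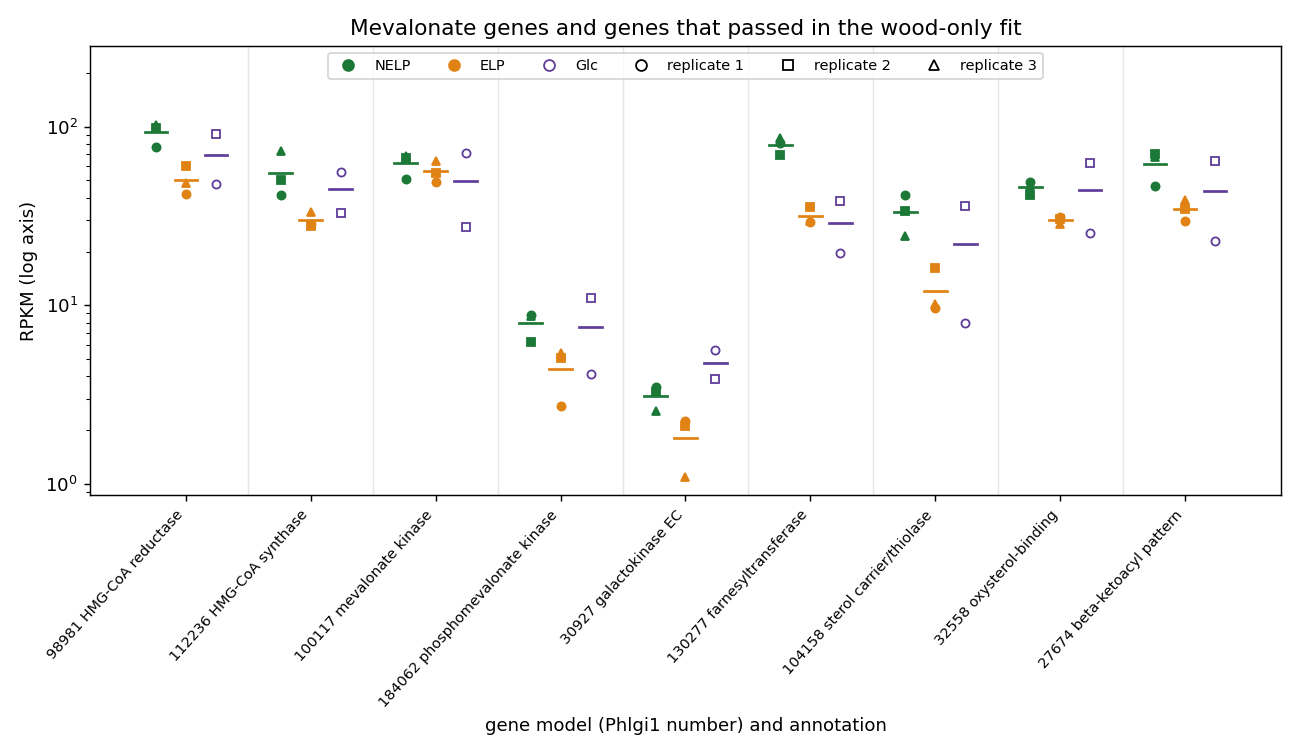
RPKM (log axis) in each library for the 5 mevalonate pathway genes and the 4 other genes that passed between NELP and ELP when the wood libraries were fitted alone, with 1 symbol per replicate and a bar at each mean. All NELP symbols lie above all ELP symbols for each gene but the mevalonate kinase Phlgi1_100117, and the Glc symbols of most genes reach up to the NELP level.

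The 4 other genes of that wood-only fit had different annotated roles. Farnesyltransferase Phlgi1_130277, whose family attaches farnesyl groups to proteins, stood at 80.7, 69.1 and 86.8 RPKM in NELP, 29.2, 35.4 and 29.8 in ELP, with 19.6 and 38.3 in Glc. The NELP libraries lay far above all others and the ELP libraries within the Glc range. It was 2.83-fold higher in NELP than in Glc (1.501 ± 0.30, adjusted p = 0.012), passing with every library left out but not after rescaling (0.91, adjusted p = 0.059), and did not pass in ELP against Glc (0.19 ± 0.30, adjusted p = 0.63). NELP against ELP gave 1.31 ± 0.27, or 2.48-fold, with an adjusted p of 0.10 in the fit over all media and 0.0084 with the wood libraries alone.

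Phlgi1_104158, named sterol carrier protein but with a thiolase domain and the enzyme class of the last step of beta-oxidation, stood at 41.4, 33.9 and 24.4 RPKM in NELP, 9.61, 16.2 and 10.2 in ELP, with 7.94 and 36.0 in Glc. Its log2 fold change in NELP against ELP was 1.44 ± 0.51 (adjusted p = 0.24 over all media, 0.023 with the wood libraries alone), while its Glc libraries spread over the whole range. The oxysterol-binding protein gene Phlgi1_32558, of a family that moves sterols and lipids between membranes, stood at 49.2, 41.4 and 46.7 in NELP, 31.4, 30.4 and 28.7 in ELP, with 25.5 and 62.8 in Glc (0.59 ± 0.31, adjusted p = 0.38 and 0.039). Phlgi1_27674 stood at 46.9, 70.3 and 67.6 in NELP, 29.7, 34.5 and 39.0 in ELP, with 22.8 and 64.2 in Glc (0.82 ± 0.37, adjusted p = 0.33 and 0.046). All 4 were thus lower in each ELP library than in any NELP library. Apart from farnesyltransferase, these genes and those of HMG-CoA reductase, HMG-CoA synthase and mevalonate kinase have no function name in the table, or in the case of Phlgi1_104158 none for a step of these pathways, so they fell outside the rule for named genes and were chosen after their values were seen, as were the other members without a function name that did not pass, except Phlgi1_117428.

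The 3 polyprenyl chain synthases, which lengthen isoprenoid diphosphates, had levels from 23.4 to 35.5 RPKM on wood and from 18.5 to 48.4 in Glc, and none passed. Phlgi1_34850 was over 2-fold apart between the Glc libraries, at 18.5 and 40.4. Phlgi1_32072 stood at 29.5 to 34.8 on wood and at 33.6 and 48.4 in Glc. It passed as lower on wood after rescaling (-0.89, adjusted p = 0.024, in NELP and -1.09, adjusted p = 0.0090, in ELP). Unrescaled, with all 8 libraries, it did not pass (-0.29, adjusted p = 0.30, and -0.44, adjusted p = 0.13). Leaving out 1 library moved these values to between -0.55 and -0.035 in NELP and between -0.69 and -0.18 in ELP.

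Of the 18 squalene and sterol enzyme genes, 7 (38.9%) passed as higher in NELP against Glc and 4 (22.2%) in ELP against Glc, with 0 lower, where 29.5% and 37.3% of all genes were called higher. Among those that passed, only Phlgi1_96543 and Phlgi1_68417 have a function name for a sterol step. The others are the farnesyltransferase Phlgi1_130277 and genes placed in this role by a domain alone. After rescaling, 1 passed as higher in NELP (6.61% of all genes), while ELP had 2 higher and 1 lower (10.8% and 11.4% of all genes). Sterol-4-alpha-carboxylate 3-dehydrogenase Phlgi1_96543, which works in the removal of the C-4 methyl groups on the way to ergosterol, stood at 38.5, 49.8 and 35.6 RPKM in NELP, 47.3, 43.8 and 30.6 in ELP, with 10.7 and 17.4 in Glc. All wood libraries were above both Glc libraries, with no gap between the woods. It was 2.92-fold higher in NELP (1.55 ± 0.30, adjusted p = 0.011) and 2.85-fold higher in ELP (1.51 ± 0.30, adjusted p = 0.0080), and it passed with each library left out and after rescaling (0.96, adjusted p = 0.045, and 0.87, adjusted p = 0.046).

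The C-14 sterol reductase gene Phlgi1_68417, whose enzyme follows C-14 demethylation, stood at 72.3, 95.0 and 99.1 RPKM in NELP, 66.5, 58.5 and 82.9 in ELP, with 60.4 and 32.6 in Glc. It passed narrowly in NELP (0.98 ± 0.31, adjusted p = 0.045) and not in ELP (0.62 ± 0.31, adjusted p = 0.14). The NELP call was lost with any library but Glc 1 left out (adjusted p = 0.058 to 0.13) and after rescaling (0.38, adjusted p = 0.49).

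The other named sterol steps did not pass. Sterol O-acyltransferase Phlgi1_37640, which makes sterol esters, stood at 51.4, 77.8 and 38.9 RPKM in NELP, 45.4, 49.2 and 77.1 in ELP, with 38.9 and 23.6 in Glc, with 1 high library in each wood. The Erg28-like gene Phlgi1_92686, in yeast a scaffold of the C-4 demethylation enzymes, stood at 51.5, 56.2 and 52.9 in NELP, 84.3, 59.5 and 61.8 in ELP, with 76.1 and 54.0 in Glc, so that NELP was the lowest group. Squalene synthase, Phlgi1_35427 by its enzyme class, was among the most even genes of the group, at 70.2 to 86.3 in NELP, 68.8 to 72.4 in ELP, with 55.3 and 56.5 in Glc (0.51 ± 0.19, adjusted p = 0.070, in NELP and 0.33 ± 0.19, adjusted p = 0.19, in ELP).

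The gene named terpene cyclase in the table, Phlgi1_87649, has the enzyme class of lanosterol synthase, which closes the sterol ring system. The study's list of secondary metabolism genes instead gives this gene as a putative squalene synthase. It stood at 25.7, 29.0 and 31.2 RPKM in NELP, 22.2, 23.2 and 26.6 in ELP, with 59.4 and 23.2 in Glc, and did not pass in either comparison with Glc (-0.38 ± 0.36, adjusted p = 0.44, and -0.63 ± 0.36, adjusted p = 0.19). Its high Glc value was in Glc 1 alone.

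A further pair of genes share its prenyltransferase/squalene oxidase domain, which also occurs in the beta subunits of protein prenyltransferases, and have no function name. Phlgi1_76254 stood at 52.0, 49.3 and 47.6 RPKM in NELP, 57.6, 51.6 and 50.1 in ELP, with 23.5 and 30.3 in Glc (0.88 ± 0.20, adjusted p = 0.017, and 0.97 ± 0.20, adjusted p = 0.0088), with the NELP call lost without NELP 1 (adjusted p = 0.058) or NELP 2 (adjusted p = 0.065). Phlgi1_30631 stood at 47.3, 40.1 and 41.2 in NELP, 36.7, 33.7 and 28.9 in ELP, with 13.7 and 29.5 in Glc, and passed in NELP alone (1.07 ± 0.32, adjusted p = 0.037), a call lost with any library but Glc 2 left out (adjusted p = 0.053 to 0.10). Neither passed after rescaling, at 0.29 and 0.48 in NELP.

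Phlgi1_21774, with a lecithin:cholesterol acyltransferase domain, found in enzymes that move acyl groups onto sterols and other lipids, stood at 50.3, 59.8 and 62.0 RPKM in NELP, 54.9, 50.1 and 67.0 in ELP, with 30.1 and 18.8 in Glc. It was higher by 1.25 ± 0.26 (adjusted p = 0.013) in NELP and 1.24 ± 0.26 (adjusted p = 0.0094) in ELP. The NELP call was lost without NELP 2 (adjusted p = 0.055), and both fell below the threshold after rescaling, at 0.66 and 0.59.

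The ERG4/ERG24 domain, shared by sterol reductases and by membrane methyltransferases, made up the largest family of the group, with 10 genes. Only the C-14 sterol reductase above has a function name, and 2 of the other 9 are assigned to protein-S-isoprenylcysteine O-methyltransferase, a protein-modifying enzyme. Among those 9, 1 passed: Phlgi1_32420 stood at 20.2, 14.5 and 21.4 RPKM in NELP, 29.2, 21.2 and 22.5 in ELP, with 7.24 and 9.31 in Glc. It was higher by 1.12 ± 0.26 (adjusted p = 0.018) in NELP, a call lost without NELP 1 (adjusted p = 0.059) or NELP 3 (adjusted p = 0.057), and by 1.496 ± 0.26 (adjusted p = 0.0055) in ELP, a call that also held after rescaling (0.86, adjusted p = 0.046). Its neighbour 561 bases away, Phlgi1_123011 with the same domain, stayed at 0.345 to 1.94 RPKM. The other 8 had means from 1.51 to 81.1 RPKM, and the highest of them, Phlgi1_20334, stood at 58.1 to 85.3 in the wood libraries but at 165 in Glc 1 and 34.5 in Glc 2.

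The 6 sterol-binding and transport genes were the most abundant role, with a median mean level of 67.3 RPKM. Phlgi1_117428, a small model of 619 bases with a sterol-carrier (SCP2-type) sterol-binding domain, had the highest level of all members. It stood at 289.7, 326 and 276 RPKM in NELP, 265, 237 and 329 in ELP, with 189 and 256 in Glc, and did not pass (0.43 ± 0.24, adjusted p = 0.18, and 0.32 ± 0.24, adjusted p = 0.30).

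The oxysterol-binding protein gene Phlgi1_121031 differed clearly from Glc, at 147, 158 and 154 RPKM in NELP, 144, 125 and 107 in ELP, with 54.6 and 52.3 in Glc. Here the Glc libraries were close together and far below all wood libraries. It was 2.84-fold higher in NELP (1.51 ± 0.20, adjusted p = 0.0047) and 2.32-fold higher in ELP (1.21 ± 0.20, adjusted p = 0.0050) and passed with each library left out. After rescaling it was 0.91 (adjusted p = 0.028) in NELP and 0.55 (adjusted p = 0.085) in ELP. The other 2 genes of its family, Phlgi1_32558, above, and Phlgi1_125333, did not pass in either comparison. After rescaling, Phlgi1_32558 passed as lower in ELP (-1.06, adjusted p = 0.042). Phlgi1_125333 stood at 78.8 to 99.8 on wood and at 161 and 66.2 in Glc.

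Phlgi1_250270 carries a sterol-sensing domain, a membrane module known from HMG-CoA reductase and from the regulators of sterol synthesis in animals and yeasts. It stood at 36.2, 47.3 and 49.4 RPKM in NELP, 28.5, 30.5 and 39.8 in ELP, with 6.83 and 18.7 in Glc, and was higher by 1.90 ± 0.40 (adjusted p = 0.013) in NELP and 1.48 ± 0.40 (adjusted p = 0.021) in ELP, or 3.74-fold and 2.79-fold. The NELP call held after rescaling (1.32, adjusted p = 0.049) and was lost without NELP 2 (adjusted p = 0.053). The ELP call was lost after rescaling (0.84, adjusted p = 0.13) and without ELP 2 (adjusted p = 0.053) or ELP 3 (adjusted p = 0.059). Without Glc 1 the log2 fold changes were 1.21 and 0.79, and without Glc 2 they were 2.60 and 2.17.

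Related genes outside the group were read from a list of 26, of which 10 entered because dehalogenase contains the letters of halogenase. Of the 23 tested, 5 passed as higher and 2 as lower in NELP against Glc, 6 as higher and 4 as lower in ELP against Glc, and 0 between the woods (4 at an unadjusted p under 0.05). The shares called higher, 21.7% and 26.1%, were below the 29.5% and 37.3% of all genes, and those called lower, 8.70% and 17.4%, were above the 3.67% and 5.14%. Without the dehalogenases, of 14 tested, these counts were 3 and 2, and 4 and 2. Both halogenases were higher in NELP: Phlgi1_30804 at 15.1, 12.5 and 12.4 RPKM in NELP, 4.91, 6.27 and 4.74 in ELP, with 2.58 and 5.20 in Glc (1.72 ± 0.29, adjusted p = 0.0077), and Phlgi1_534844 at 10.4, 10.53 and 9.57 in NELP, 8.20, 10.4 and 9.66 in ELP, with 3.00 and 4.61 in Glc (1.33 ± 0.23, adjusted p = 0.0080). The second was also higher in ELP than in Glc (1.22 ± 0.23, adjusted p = 0.0067).

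The emopamil-binding gene Phlgi1_116824, a sterol isomerase by its enzyme class, went the other way, at 60.8, 71.3 and 71.0 RPKM in NELP, 83.9, 71.1 and 74.5 in ELP, with 129.5 and 153 in Glc. It was lower by -1.05 ± 0.20 (adjusted p = 0.010) in NELP and -0.88 ± 0.20 (adjusted p = 0.012) in ELP, with each library left out as well, and by -1.65 and -1.54 after rescaling. After rescaling, the whole list had 2 higher and 3 lower in NELP and 0 higher and 4 lower in ELP. Of all genes, 6.61% were then higher and 6.96% lower in NELP, and 10.8% and 11.4% in ELP. Of 12 sterol or isoprenoid step genes outside the rule, 1 was called higher and 1 lower (8.33% each) in each comparison with Glc. Of all genes, 29.5% and 37.3% were called higher. The higher one, Phlgi1_66027, a sterol glucosyltransferase by its enzyme class, stood at 38.7 to 58.7 RPKM on wood, with 8.48 and 17.6 in Glc. It was higher by 1.97 ± 0.32 (adjusted p = 0.0072) in NELP and 1.87 ± 0.32 (adjusted p = 0.0055) in ELP. Its rescaled values were 1.39 and 1.23.

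The Glc libraries differed from each other across the table: 11.1% of all genes tested were over 2-fold higher in Glc 1 and 23.9% in Glc 2. Of the group's own 18 squalene and sterol enzymes, 1 (5.56%) was over 2-fold higher in Glc 1 and 5 (27.8%) in Glc 2, with a median log2 ratio of Glc 1 to Glc 2 of -0.64, beside -0.30 for all genes. That role includes genes of unclear function, such as the 9 unnamed ERG4/ERG24 genes. Its sterol-step genes were mixed: 0.88 for C-14 sterol reductase, 0.71 for sterol O-acyltransferase and 0.49 for the Erg28-like gene. Others were lower in Glc 1, at -0.03 for squalene synthase and -0.68 for Phlgi1_96543. The lanosterol synthase-class gene, sorted with the terpenoid synthases, had 1.34. Of the 12 genes outside the rule that an enzyme class or domain places on sterol or isoprenoid steps, 6 (50.0%) were over 2-fold higher in Glc 1 than in Glc 2 and 1 (8.33%) was over 2-fold lower, with a median of 1.27. Isopentenyl-diphosphate isomerase Phlgi1_21251, which interconverts the isoprenoid units, stood at 447 RPKM in Glc 1 and 86.7 in Glc 2, against 94.9 to 159.9 on wood. A sterol desaturase gene, Phlgi1_74239, stood at 471 and 57.6, and squalene monooxygenase, Phlgi1_105116 by its enzyme class, at 85.4 and 19.2.

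Among the 44 members tested, 6 (13.6%) were over 2-fold higher in Glc 1, among them mevalonate kinase (71.6 against 27.3 RPKM), the lanosterol synthase-class gene (59.4 against 23.2) and Phlgi1_20334 (165 against 34.5). In Glc 2, 17 (38.6%) were over 2-fold higher, among them all 3 tested polyketide or beta-ketoacyl genes. These are 2 cultures with no further replicate, the 12 genes were grouped after an earlier look at the data, and no test was made. For these genes the mean of the Glc group describes neither library.

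**Figure D5:**
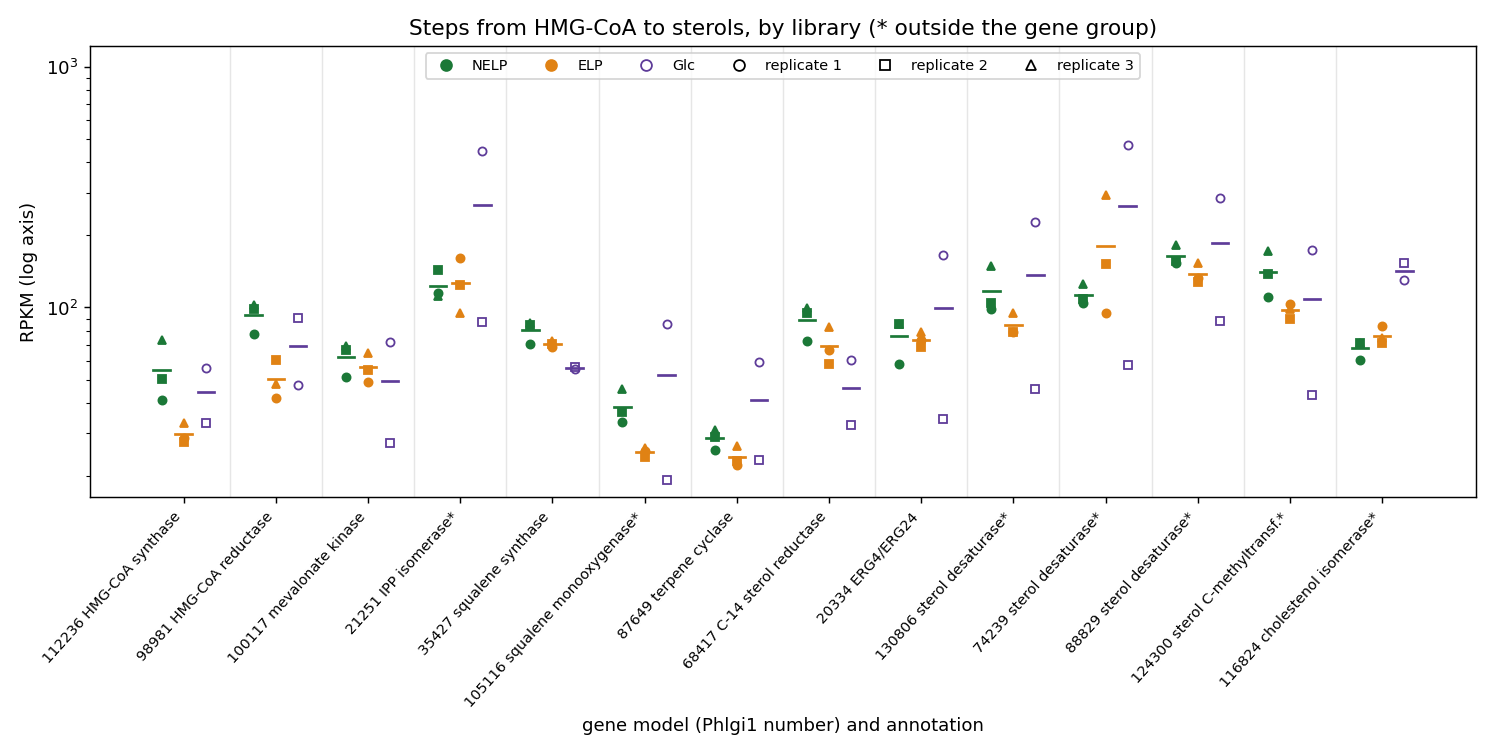
RPKM (log axis) in each library for genes at steps from HMG-CoA to sterols, in approximate pathway order, with 1 symbol per replicate and a bar at each mean, and with an asterisk on genes outside the group. For isopentenyl-diphosphate isomerase and the 3 sterol desaturases Glc 1 lies above every wood library and Glc 2 below, while the squalene synthase gene has its Glc libraries together, at 55.3 and 56.5.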

How the data were processed

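The authors sequenced poly-A TruSeq libraries on an Illumina HiSeq2000, mapped the reads and deposited 1 RPKM value per gene model and library (DNAStar SeqNGen and QSeq, with CASAVA 1.8.2 in the submitters' processing notes). Read counts were not used here, so depth is known only relative to NELP 1. The values were read as log2(RPKM + 0.5), on which fold changes of low genes are understated. Genes with a mean under 1 RPKM (7.51% of models) were left out. One model over the 3 media was fitted to all genes with limma 3.58.1 (R 4.3.3) and adjusted over all of them (Benjamini-Hochberg, threshold 0.05). The code was tested on simulated data. Named genes were those that passed, those in the study's list of secondary metabolism genes, those whose function name in the table gives a mevalonate or sterol step (not an enzyme class or domain alone), and the 3 most abundant. The members and lists were chosen with earlier results of these data known. Gene order and spans came from the RefSeq table of the Phlgi1 assembly, which held all 47 genes and 11825 of the 11892 models. Cultures were separate, and replicate numbers do not pair them. The alternatives were other pseudocounts and filters, rescaling, the compared media alone, a replicate block, library weights, and leaving out each library.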

Additional observations from a re-analysis of the deposited data

How the results depend on the processing

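Pseudocounts of 1 and 0.1, no filter and a minimum mean of 5 RPKM left the counts of members passed at 13 or 14 in NELP against Glc, 11 to 13 in ELP against Glc and 0 between the woods. Rescaling gave 6 in NELP against Glc and turned the medians to -0.10 (NELP) and -0.29 (ELP), and the related-gene list in ELP fell from 10 to 4. Without the dehalogenases that list gave 6 before rescaling and 2 after. The counts without the dehalogenases, and counts of 13, 12 and 0 without the 9 unnamed ERG4/ERG24 genes, were chosen after seeing the data. Fitting the compared media alone gave 4, 7 and 5. Weighting libraries by their estimated spread gave 0 against Glc in both comparisons (11 and 10 members at an unadjusted p under 0.05, and 138 and 193 of all genes passed) and 14 between the woods, where 3919 of all genes passed. Leaving out 1 library gave 6 to 29 in NELP against Glc, with medians of 0.43 to 0.90, 10 to 25 in ELP against Glc, and 0 to 5 between the woods, the highest counts coming without Glc 2 or, between the woods, without either Glc library. Of the 14 and 13 calls against Glc, 4 and 5 passed under rescaling, the compared media alone and every left-out library together; weighting removed these too. Replicate numbers did not pair the samples: correlations of same-numbered libraries ran from -0.20 to 0.50, and a replicate block gave 12, 13 and 0. No called gene reversed. Of the genes that did not pass but whose fold change is given, rescaling reversed Phlgi1_117428 (-0.17 in NELP, -0.34 in ELP), Phlgi1_35427 (-0.083, -0.33) and, in ELP, Phlgi1_130277 (-0.46) and Phlgi1_68417 (-0.035). Without Glc 1, Phlgi1_130277 in ELP and Phlgi1_87649 reversed, with ranges over left-out libraries of -0.28 to 0.66, and of -1.05 to 0.29 in NELP and -1.30 to 0.041 in ELP. With 2 Glc libraries, sizes against Glc are loosely set. The highest counts against Glc came without Glc 2, from fits with 1 Glc library. Calls then rose across all genes too, so these counts alone do not set the members apart. The members' median log2 fold changes without Glc 2 were 0.90 in NELP and 0.62 in ELP. Those of all genes were 0.70 and 0.76.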
